A study of Mus musculus with 2 samples.

Results

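The genes described are 10 nuclear effectors and regulators of the Hippo pathway: the coactivators Yap1 and Wwtr1 (the gene of TAZ), the DNA-binding factors Tead1 to Tead4, the TEAD cofactors Vgll2, Vgll3 and Vgll4, and the kinase gene Lats2. They were chosen by symbol, with earlier results of these data known, and each symbol matched 1 gene of the 55536 in the gene tables. All 10 reached at least 1 TPM (a unit of transcript abundance scaled for gene length and library depth) in both libraries. Of all genes 24.0% did so, and of protein-coding genes 54.8%. The tissue was gastrocnemius, a calf muscle, from 4-day-old female mice of B6CASTF1/J, which are first-generation hybrids of C57BL/6J and CAST/EiJ with no treatment named in the labels. The study held 1 group of 2 biological replicates, from the animals numbered 3 and 4, each sequenced as total RNA with reduced ribosomal RNA from 300 ng. Both samples carry the same donor record. Their relatedness is not stated, and the SD measures only the spread between these 2 samples. No conditions were compared and no test was run: each level is given per library, or as mean ± SD (n = 2).

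In the Hippo pathway the kinases MST1 and MST2 (genes Stk4 and Stk3) activate LATS1 and LATS2, which phosphorylate YAP and TAZ and so keep them in the cytoplasm or mark them for destruction. YAP and TAZ that reach the nucleus do not bind DNA themselves but dock on TEAD factors, which recognise the MCAT element found in many muscle promoters. Vestigial-like (VGLL) proteins bind the same TEAD factors, and VGLL4 competes there with YAP. In muscle the pathway is known for its parts in satellite cell proliferation, myoblast differentiation and fibre growth, and mRNA levels do not show how much YAP or TAZ protein is nuclear.

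In 4 of these genes the leading coding transcripts, those with at least 10% of the gene's TPM in both libraries, differed by an internal stretch of 12 or more coding bases. The stretches are shown because the transcript results below turn on them. Capitals mark the stretch present in one transcript and absent from another, lower case the 20 coding bases on each side, 5′ to 3′ on the gene's strand, read from the GENCODE M21 transcript sequences (mm10).
Yap1-201, 48 bases, chr9:7950492-7950539, minus strand: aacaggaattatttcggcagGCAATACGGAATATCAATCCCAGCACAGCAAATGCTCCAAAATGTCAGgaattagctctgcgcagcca
Tead1-201, 63 bases, chr7:112841888-112841950, plus strand: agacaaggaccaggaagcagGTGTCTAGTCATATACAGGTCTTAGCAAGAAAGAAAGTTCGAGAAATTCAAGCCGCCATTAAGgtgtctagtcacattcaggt
Tead1-201, 12 bases, chr7:112856053-112856064, plus strand: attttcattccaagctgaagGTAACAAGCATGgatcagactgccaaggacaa
Tead4-201, 129 bases, chr6:128247960-128248088, minus strand: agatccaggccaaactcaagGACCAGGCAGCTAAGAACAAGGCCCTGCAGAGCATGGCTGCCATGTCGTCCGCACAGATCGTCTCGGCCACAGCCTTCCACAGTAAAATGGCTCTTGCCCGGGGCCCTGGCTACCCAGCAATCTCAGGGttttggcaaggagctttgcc
Vgll3-201, 165 bases, chr16:65827894-65828058, plus strand: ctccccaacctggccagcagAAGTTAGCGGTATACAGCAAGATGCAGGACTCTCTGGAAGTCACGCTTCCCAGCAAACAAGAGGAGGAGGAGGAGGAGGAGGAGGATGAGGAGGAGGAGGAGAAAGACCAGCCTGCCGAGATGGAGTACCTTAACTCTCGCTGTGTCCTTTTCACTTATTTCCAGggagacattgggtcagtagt
Each of these lengths is a multiple of 3, so the reading frame is the same after the stretch whether it is present or not. The 63-base stretch of Tead1 resembles the coding bases that follow it, with 44 of 63 positions (69.8%) equal when the next 63 bases are set beside it without gaps. The 165-base stretch of Vgll3 holds a run of 8 GAG triplets.

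Tead1 was the most abundant of the 10 genes and Tead4 the least, 8.20-fold apart by mean TPM. The members had a median of 18.5 TPM beside 9.40 TPM for the 13336 detected genes (at least 1 TPM in both libraries), and 9 of 10 lay above that median. Counts behind these levels ran from 486 expected counts for Tead4 in replicate 1 to 10738 for Tead1 in replicate 2. In bulk tissue the RNA of all cells is pooled, so a level says nothing of which cells of the muscle hold the transcript. Fewer cells of a type and less RNA per cell cannot be told apart either.

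Of the coactivators, Yap1 (chromosome 9, 7931999 to 8004596, minus strand) stood at 38.1 TPM in replicate 1 and 41.7 TPM in replicate 2, with 4126 and 5042 expected counts. Wwtr1 (chromosome 3, 57455649 to 57575910, minus strand) stood at 27.7 and 27.6 TPM, with 3569 and 4032 expected counts. Yap1 was thus the higher of the pair in both libraries, 1.37-fold in replicate 1 and 1.51-fold in replicate 2, and the deposited intervals of TPM, which come with no stated confidence level, did not overlap. Yap1 took 59.0% ± 1.61 of the summed TPM of this pair, and 54.6% ± 1.38 of their expected counts, which are not scaled for length.

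The TEAD genes encode the factors through which YAP and TAZ reach DNA. Tead1 (chromosome 7, 112679318 to 112906807, plus strand), long known as the MCAT-binding factor of muscle, stood at 59.93 TPM in replicate 1 and 59.95 TPM in replicate 2, above 91.4% of detected genes. Tead2 (chromosome 7, 45215753 to 45233644, plus strand), prominent in embryonic tissue, stood at 17.6 and 19.8 TPM. The TPM of Tead1 was 3.40-fold that of Tead2 in replicate 1 and 3.02-fold in replicate 2, and 3.03-fold and 2.43-fold in the other quantification. The deposited intervals need not hold the value they accompany: that of Tead2 in replicate 1 began at 17.614, just above its TPM of 17.61.

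Tead3 (chromosome 17, 28331671 to 28350817, minus strand) stood at 10.46 and 9.37 TPM. Tead4 (chromosome 6, 128224288 to 128300823, minus strand), which is induced during myoblast differentiation, stood at 6.70 and 7.92 TPM. The order of these 2 genes was not settled. The deposited intervals were apart in replicate 1 and overlapped in replicate 2, and in the other quantification, a separate set of deposited transcript tables, Tead4 was the higher, with 19.3 and 16.9 TPM against 16.1 and 13.5 TPM for Tead3.

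Tead1 led its family by every quantity examined. It took 63.3% of the TEAD TPM in replicate 1 and 61.8% in replicate 2 (62.5% ± 1.08), followed by Tead2 with 19.5% ± 1.30, Tead3 with 10.3% ± 0.985 and Tead4 with 7.62% ± 0.767. By expected counts its share was 83.1% (exact Clopper-Pearson 95% interval 82.4% to 83.8%) in replicate 1 and 83.4% (82.8% to 84.1%) in replicate 2, and these intervals cover counting error only. The effective length of Tead1 was 5359 bases in replicate 1, beside 1422 bases for Tead2. Summed over the family, TEAD transcripts reached 95.9 ± 1.68 TPM, and the sum was 1.44-fold that of Yap1 and Wwtr1 in replicate 1 and 1.40-fold in replicate 2.

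**Figure D1:**
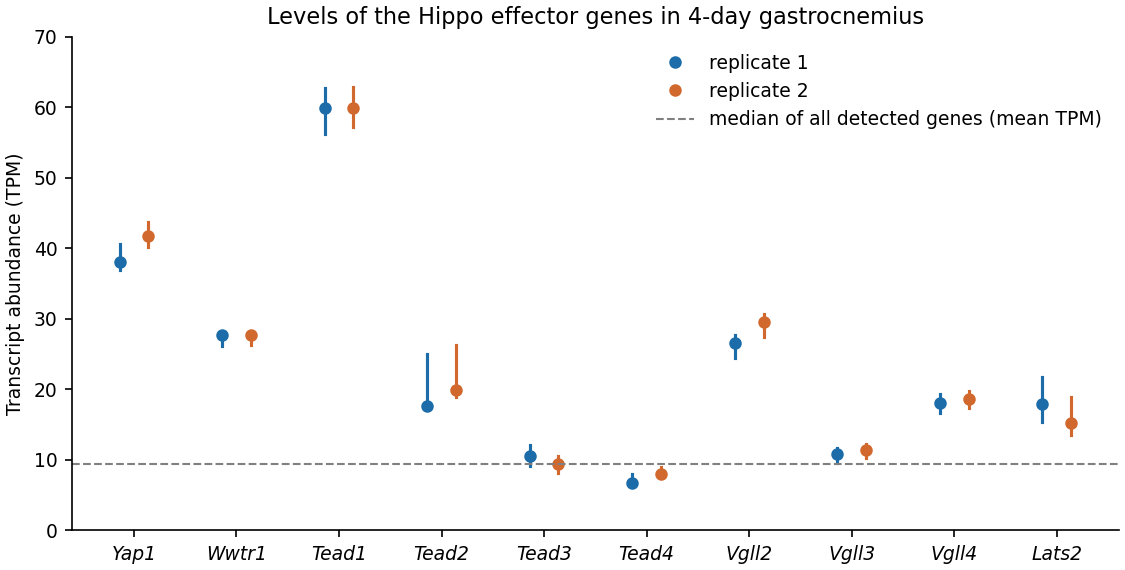
Abundance of the 10 genes in TPM (y axis) in replicate 1 and replicate 2 (points), with the deposited intervals of TPM (vertical lines) and the median of all detected genes at 9.40 TPM (dashed line). Tead1 lies near 60 TPM in both libraries, Yap1 near 40 TPM, and Tead4 below the dashed line in both.

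The vestigial-like cofactors were led by Vgll2, the member known for its skeletal muscle expression. Vgll2 (chromosome 10, 52022502 to 52028471, plus strand) stood at 26.6 TPM in replicate 1 and 29.5 TPM in replicate 2. Vgll4 (chromosome 6, 114860628 to 114969994, minus strand), the competitor of YAP for TEAD, stood at 18.1 and 18.6 TPM. Vgll3 (chromosome 16, 65815257 to 65866368, plus strand), a cofactor reported in myogenic cells, stood at 10.8 and 11.4 TPM. The ranges of these 3 genes over both libraries did not overlap.

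Vgll2 took 48.0% and 49.6% of the Vgll TPM in replicates 1 and 2 (48.8% ± 1.19), Vgll4 31.9% ± 0.931 and Vgll3 19.3% ± 0.255. The remaining family member, Vgll1, had 0 expected counts in both libraries. By counting error alone a count of 0 allows up to 3 counts, or 0.0733 TPM in replicate 1 and 0.0646 TPM in replicate 2. The deposited intervals of Vgll1 reached higher, to 0.294 and 0.263 TPM. The order differed without scaling for length: by expected counts Vgll3 held 36.2% ± 0.501, Vgll2 35.0% ± 0.372 and Vgll4 28.8% ± 0.129. In replicate 1 the effective length was 1437 bases for Vgll2 and 3601 bases for Vgll3. The Vgll sum was 0.842-fold that of Yap1 and Wwtr1 in replicate 1 and 0.858-fold in replicate 2.

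Lats2 (chromosome 14, 57689662 to 57758388, minus strand), a kinase gene that is also a known YAP target, stood at 17.8 TPM in replicate 1 and 15.1 TPM in replicate 2. Its paralog Lats1 stood at 11.0 and 10.3 TPM, so Lats2 took 60.7% ± 1.71 of the summed TPM of the pair. By expected counts the order turned, with 47.6% for Lats2 in replicate 1 (1728 of 3631 counts, exact 95% interval 46.0% to 49.2%) and 48.2% in replicate 2 (46.6% to 49.7%). The annotated gene Gm49361 lies on the same strand and overlaps Lats2 by 56442 bases. It was given 0 expected counts in replicate 1 and 73.0 in replicate 2, beside 1728 and 1896 for Lats2. Whether reads were divided differently between the 2 genes in the 2 libraries was not tested.

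**Figure D2:**
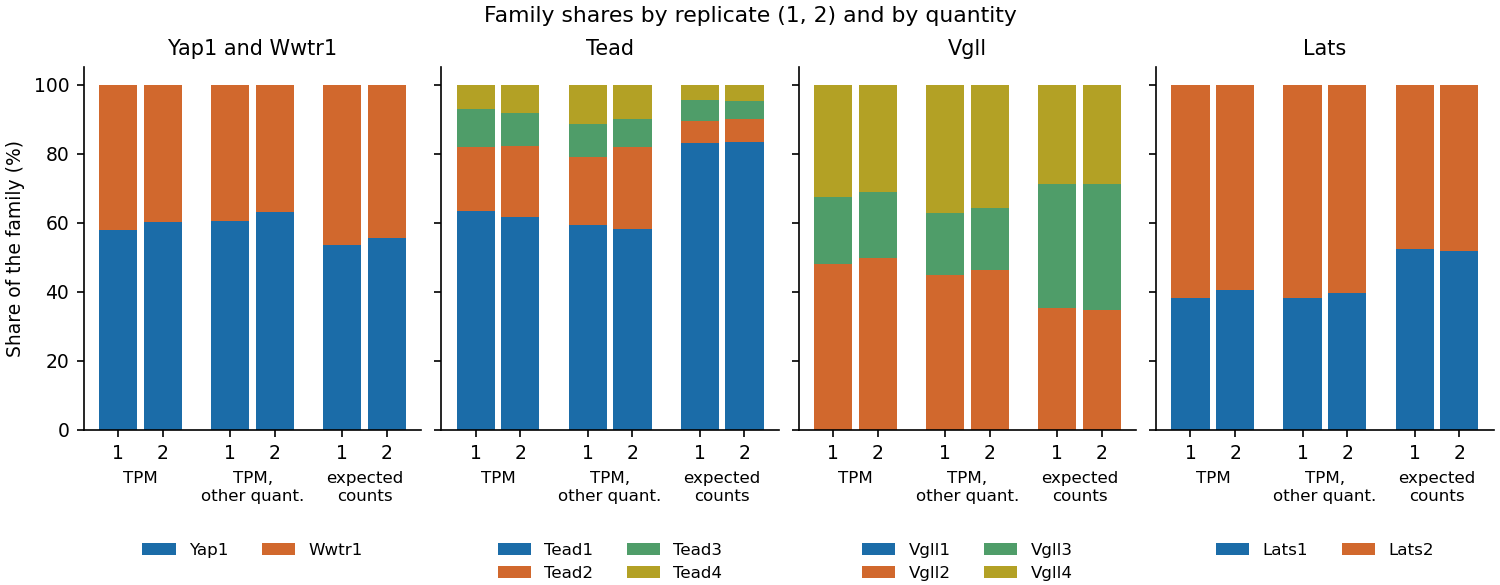
Share of each gene in its family in percent (y axis, stacked bars) for replicates 1 and 2, by TPM of the gene tables, by TPM of the other quantification and by expected counts. Tead1 holds the largest part of the Tead bars throughout, whereas the Vgll and Lats orders differ between TPM and expected counts.

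Set in 1 order by mean TPM, the members ran Tead1, Yap1, Vgll2, Wwtr1, Tead2, Vgll4, Lats2, Vgll3, Tead3 and Tead4, which gave 9 neighbouring pairs. For 2 of these, Vgll2 with Wwtr1 and Tead2 with Vgll4, the values of the libraries overlapped and each library gave a different order. The deposited intervals overlapped in both libraries for 4 pairs, namely these 2, Vgll4 with Lats2, and Vgll3 with Tead3. A further 4 pairs (Tead1 with Yap1, Yap1 with Vgll2, Wwtr1 with Tead2, Lats2 with Vgll3) were apart by both measures. For Wwtr1 and Tead2 the gap was narrow in replicate 2, where the interval of Wwtr1 began at 26.252 TPM and that of Tead2 ended at 26.243 TPM. By the other quantification Wwtr1 was 1.38-fold Tead2 in replicate 1 and 1.08-fold in replicate 2. In the other quantification the TPM of a detected gene was 1.74-fold that of the gene table at the median. The members ran from 1.49-fold for Tead3 to 2.48-fold for Tead4.

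Transcript values are estimates for isoforms that share sequence, and the shares of many transcripts differed between the 2 quantifications. Yap1 was carried by Yap1-202 (20.01 and 18.91 TPM in replicates 1 and 2), which lacks the 48-base stretch, and Yap1-201 (14.4 and 18.7 TPM), which has it. Among protein-coding Yap1 transcripts that span the stretch, 43.6% of the TPM in replicate 1 and 52.0% in replicate 2 had it, and 49.6% and 53.9% in the other quantification. Neither form was the major one in all 4 values. Wwtr1, in contrast, was carried by Wwtr1-201 alone among its leading transcripts, with 98.5% ± 2.15 of the gene's TPM.

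For Tead1, transcripts with the 63-base stretch took 59.1% and 63.1% of the spanning protein-coding TPM in replicates 1 and 2, and those with the 12-base stretch 66.6% and 67.9%. The leading transcripts were Tead1-201 (30.0% ± 0.239 of the gene's TPM), which has both stretches, Tead1-206 (15.2% ± 6.12), which also has both, and Tead1-202 (19.5% ± 1.81), which lacks both. Their mean shares in the other quantification were 39.6%, 5.91% and 11.3%. Forms with each stretch were the more abundant in both libraries and in both quantifications, where the other gave 75.3% and 77.6% for the 63 bases and 68.8% and 74.3% for the 12 bases.

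The 129-base stretch of Tead4 was present in 71.5% and 63.5% of the spanning protein-coding TPM, from Tead4-201, and absent from Tead4-203, which took 32.5% ± 5.64 of the gene's TPM. In the other quantification the stretch was present in 63.6% and 58.1%. Among spanning transcripts the form with the stretch was thus the more abundant in each of the 4 values, over 486 and 624 expected counts for the gene. The coding model Tead4-204, which does not span the stretch, is left out of these shares. It took 29.6% and 9.95% of the gene's TPM in replicates 1 and 2 of the other quantification, and 0% in the main table.

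Vgll3 was divided between Vgll3-201 and Vgll3-202, and the 165-base stretch was present in 44.5% and 51.3% of the coding TPM in replicates 1 and 2, against 59.5% and 70.3% in the other quantification. The major coding form of Vgll3 therefore differed between the quantifications in replicate 1. Vgll2 had a difference of 3 coding bases only, where Vgll2-202 (82.2% ± 1.55 of the gene's TPM) has 3 bases that Vgll2-201 (17.8% ± 1.55) lacks. In the other quantification these transcripts took 75.3% and 24.7%.

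Not all of a gene's TPM lay in transcripts annotated as protein-coding. The share was 100% for Wwtr1, Tead4 and Vgll2, 93.8% ± 0.857 for Yap1, 90.2% ± 1.90 for Tead1 and 89.6% ± 1.60 for Vgll3, beside a median of 88.6% over the 12064 detected protein-coding genes. Lats2 lay at 84.8% ± 4.37, led by the coding transcript Lats2-201 (64.5% ± 8.63 of the gene's TPM) with 12.6% ± 2.23 in the short processed transcript Lats2-204. In the other quantification Lats2-201 took 60.6% on average. Lower shares were found for Tead2 (59.1% in replicate 1 and 79.8% in replicate 2), Tead3 (49.0% and 57.2%) and Vgll4 (40.2% and 42.4%). Which genes lay low differed in the other quantification, where the median was 86.5%: Tead3 (64.2%) and Vgll4 (51.1%) stayed below it, Tead2 (89.2%) and Lats2 (92.4%) lay above it, and Vgll3 (66.8%) lay below it.

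The noncoding part of Vgll4 was mostly Vgll4-205, a processed transcript that took 40.6% ± 3.02 of the gene's TPM and exceeded its leading coding transcript Vgll4-201 (34.7% ± 8.59). For Tead3 the leading coding transcript Tead3-206 held 41.9% ± 8.53, and the retained-intron models Tead3-202 and Tead3-204 held 18.4% ± 3.42 and 14.8% ± 3.22. Tead2 rested on Tead2-201 (45.1% ± 0.805), with 16.1% ± 7.42 in the short processed transcript Tead2-204. Means in the other quantification were 38.0% for Vgll4-205, 24.1% for Vgll4-201, 28.5% for Tead3-206, 21.5% for Tead3-202 and 39.3% for Tead2-201. The short models Tead2-204, Tead3-204 and Lats2-204 had 0% there in both libraries. In that quantification Tead3-205 held 36.0% and 15.8% in replicates 1 and 2, beside 13.8% and 43.2% for Tead3-206. Vgll4-203 held 24.5% and 24.9%, beside 20.7% and 27.5% for Vgll4-201. The leading coding transcript of Tead3 and of Vgll4 there thus differed between the libraries. Tead2-206 held 24.4% and 37.2%, below Tead2-201 at 39.5% and 39.1%.

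Counting protein-coding transcripts only, an alternative added after the data were seen, the leaders of the families stayed Tead1 (68.0%) and Vgll2 (61.6%). Vgll4 then held 16.6% of the Vgll sum, under the 21.8% of Vgll3, and Tead3 held 6.59% of the Tead sum, under the 9.15% of Tead4.

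**Figure D3:**
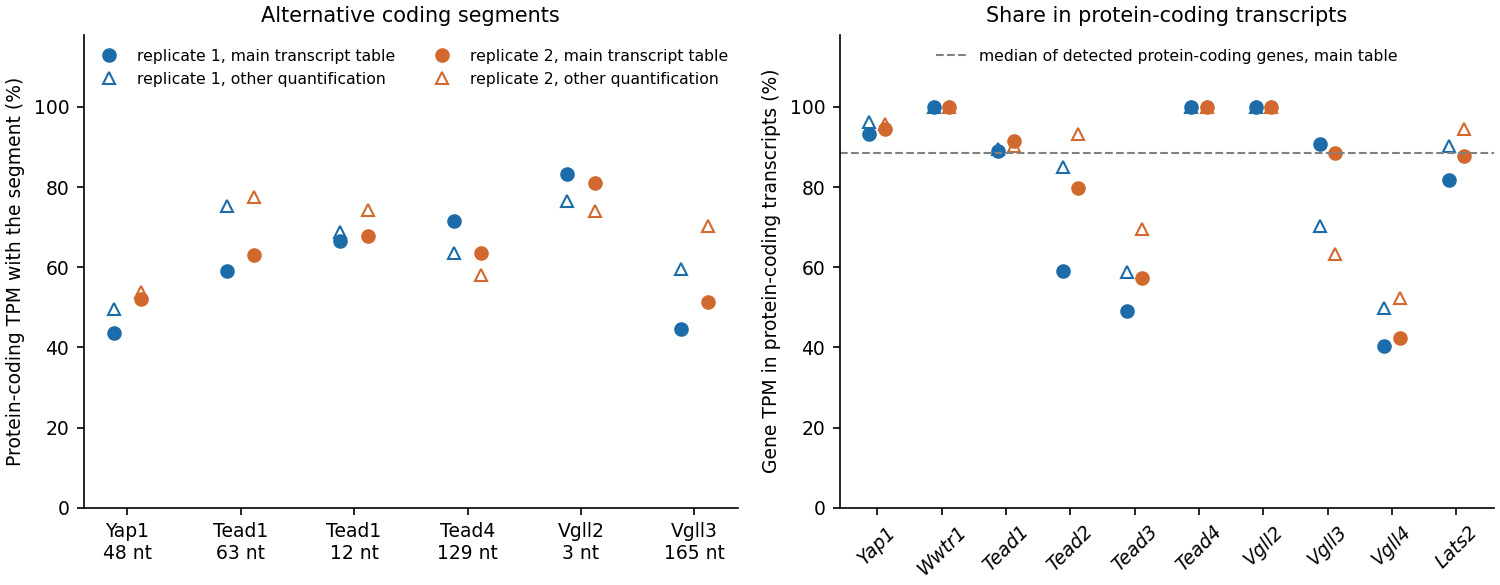
Left, percent of the spanning protein-coding TPM that holds each alternative coding stretch (x axis, gene and length in bases). Right, percent of each gene's TPM in protein-coding transcripts, with the median of detected protein-coding genes (88.6%, dashed). Filled points are the main transcript table and open triangles the other quantification, for replicates 1 and 2. In the main table Vgll4, Tead3 and Tead2 lie furthest below the dashed line.

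Between the 2 libraries the members differed little. By counts scaled with trimmed means of M values (TMM), 0 of the 10 members were over 1.5-fold apart, where 2.46% of the 12257 genes averaging 100 counts or more were. The log2 ratio of replicate 2 over replicate 1 ran from -0.18 for Tead3 to 0.19 for Vgll3, with a median of 0.12. Of the members, 7 were higher in replicate 2, where 55.3% of those genes were.

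Counting intervals (exact binomial, 95%) held 0 for Wwtr1 (-0.07 to 0.06), Tead2 (-0.02 to 0.27) and Lats2 (-0.14 to 0.05). They lay above 0 for Yap1, Tead1, Tead4, Vgll2, Vgll3 and Vgll4, and below 0 for Tead3 (-0.34 to -0.02). These intervals leave out the variation between animals. The share of all genes with an interval apart from 0 was not computed, so these intervals do not set the members apart from other genes. With scaling by the spike-in transcripts added to each sample, the median of all genes moved by -0.14. Under that scaling 4 members were higher in replicate 2, where 22.9% of the genes averaging 100 counts or more were. Yap1 and Tead1 then had log2 ratios of -0.029 and -0.062 in place of 0.11 and 0.08. For Lats2 the TPM of replicate 2 was 0.849-fold that of replicate 1 although the count ratio was near 0 (-0.04), and its effective length was 3459 bases in replicate 1 and 3941 bases in replicate 2.

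The libraries were not alike in tissue markers. Total expected counts were 30961087 and 36246031 in replicates 1 and 2. All 8 skeletal muscle markers were detected, from 610 to 12814 TPM, with sums of 38467 and 45522 TPM. By TMM-scaled counts all 8 were higher in replicate 2, with a median log2 ratio of 0.24, and 0 were over 1.5-fold apart. Summed marker levels in replicates 1 and 2 were close for satellite cells (8 of 8 detected, 140 and 145 TPM), endothelium (8 of 8, 262 and 250 TPM), mural cells (8 of 8, 310.1 and 316 TPM) and macrophages (8 of 8, 122 and 112 TPM), and further apart for fibroblasts (8 of 8, 5502 and 4710.3 TPM), Schwann cells (8 of 8, 333 and 438 TPM) and adipocytes (4 of 5, 397 and 334 TPM). Tendon markers (7 of 7 detected) summed to 326 and 185 TPM, bone and cartilage markers (3 of 8, with Ibsp, Col10a1 and Matn1 at 0 in at least 1 library) to 37.6 and 12.1 TPM, and red cell markers (5 of 7) to 1648 and 312 TPM. Liver markers (4 of 6) summed to 10.2 and 104.5 TPM, led by Alb at 4.69 and 47.97 TPM. The sums of tendon, bone and red cell markers were thus lower in replicate 2 and that of liver markers higher. By TMM-scaled counts all 7 tendon markers were lower and all 6 liver markers higher. All 5 red cell markers with enough counts to be compared were lower. The bone and cartilage markers did not all move together: of the 4 with enough counts, 1 was higher and 3 lower. Col2a1 led their sum at 17.46 and 7.72 TPM. A sum can rest largely on 1 gene. Col1a1 led the fibroblast sum at 2951 and 2181 TPM, and Fabp4 the adipocyte sum at 273 and 217 TPM. Of the 8 fibroblast markers, 3 were higher in replicate 2 and 5 lower, and 0 were over 1.5-fold apart. The part of these differences in the members' ratios was not tested.

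**Figure D4:**
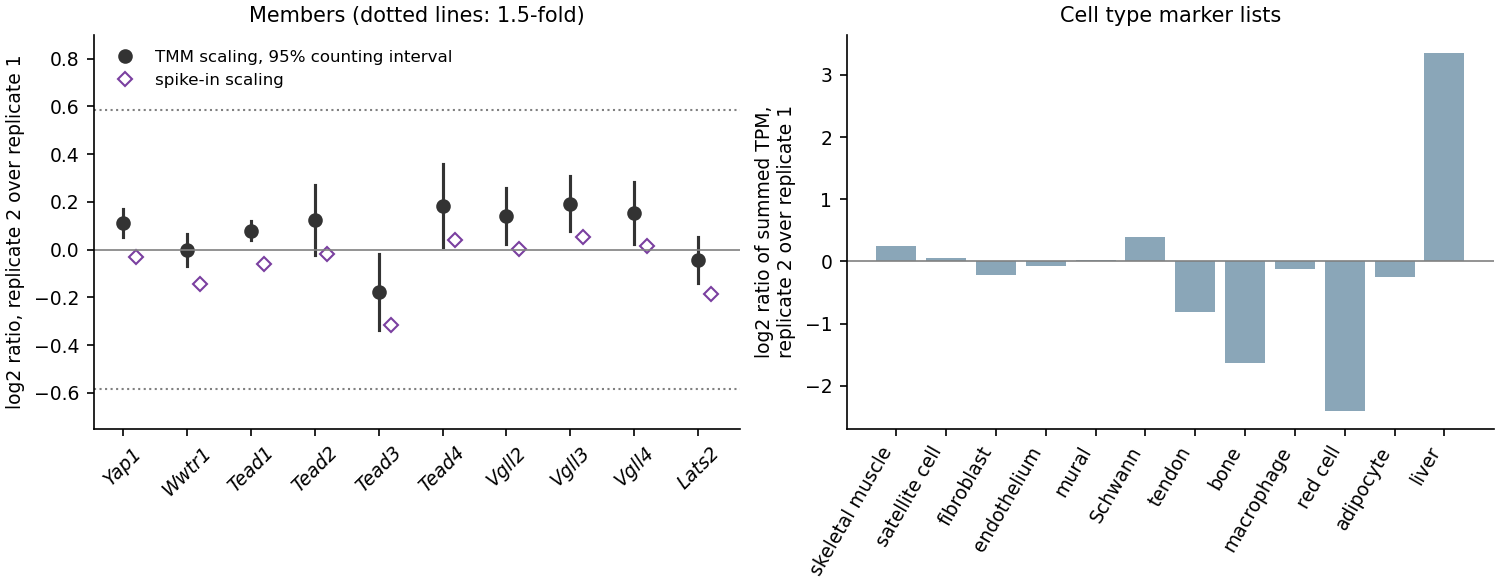
Left, log2 ratio of replicate 2 over replicate 1 for each gene under TMM scaling (points, with 95% counting intervals) and under spike-in scaling (diamonds); dotted lines mark 1.5-fold. Right, log2 ratio of the summed TPM of each cell type marker list; all members lie inside the dotted lines, between -0.18 and 0.19 under TMM, while the red cell and liver lists lie far from 0.

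The kinase genes, a list that acts upstream and includes the member Lats2, were nearly all present. Of 19 genes of the kinase list, 18 were detected, with a median of 13.5 TPM beside 9.40 TPM for all detected genes, where 54.8% of all protein-coding genes were detected. The highest were Map4k4 (64.4 ± 5.76 TPM), Tnik (31.2 ± 2.74 TPM), Stk38 (25.7 ± 3.39 TPM), Taok2 (23.5 ± 0.163 TPM), the scaffold gene Sav1 (23.2 ± 1.65 TPM) and Taok1 (18.6 ± 1.05 TPM). Map4k1, a kinase gene of blood cells, was under 1 TPM at 0.64 and 0.49 TPM.

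The MST kinase genes lay below 9 of the 10 members by mean TPM and above Tead4. Stk4 stood at 8.75 and 8.22 TPM and Stk3 at 9.11 and 7.42 TPM, so neither led the pair in both libraries (Stk3 took 51.0% and 47.4%). In the other quantification Stk4 was 1.03-fold and 1.02-fold Stk3, with protein-coding transcripts only 1.13-fold in each library, and by expected counts it took 60.2% and 61.0%. The place beside Tead4 turned in the other quantification. There Stk4 (18.7 and 14.8 TPM) and Stk3 (18.1 and 14.5 TPM) lay below Tead4 (19.3 and 16.9 TPM) in each library. Both lay above Tead3 (16.1 and 13.5 TPM). The LATS cofactor genes Mob1a and Mob1b stood at 13.9 ± 0.325 and 13.0 ± 0.445 TPM. Of 12 listed genes of the STRIPAK complex, a phosphatase complex that acts against MST kinases, 10 were analysed and all 10 were detected, led by Ppp2r1a (73.0 ± 0.615 TPM), Strn3 (52.5 ± 0.636 TPM), Sike1 (37.6 ± 2.36 TPM), Slmap (35.6 ± 1.32 TPM), Strn4 (28.2 ± 3.51 TPM) and Ppp2ca (23.3 ± 1.41 TPM).

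Of 15 matched membrane and scaffold inputs, 13 were detected, with a median of 12.4 TPM. Tjp1 (26.2 ± 1.75 TPM), Nf2 (21.8 ± 0.191 TPM), which encodes merlin, the atypical cadherin gene Fat1 (19.0 ± 0.643 TPM), Frmd6 (18.6 ± 1.05 TPM), Fat4 (16.5 ± 1.44 TPM) and Scrib (16.2 ± 1.93 TPM) led. Wwc1, the gene of KIBRA, was at 0.48 and 0.51 TPM, and Crb3, an epithelial polarity gene, at 0.10 and 0.26 TPM, which rests on 2 and 6 expected counts.

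Among proteins that hold YAP or TAZ or compete with them, the angiomotin genes Amotl1 and Amot stood above both coactivators and Amotl2 below Yap1. The place of Amotl2 was not settled. In the other quantification it stood at 85.5 and 60.8 TPM in replicates 1 and 2, beside 69.9 and 74.1 TPM for Yap1. Amotl1 stood at 113 and 127 TPM in replicates 1 and 2, which was 2.96-fold and 3.05-fold the TPM of Yap1. Amot stood at 60.1 ± 3.85 TPM and Amotl2, also a known YAP target, at 25.8 ± 3.05 TPM, so that Amotl1 took 58.2% ± 1.86 of the family. The 14-3-3 genes Ywhae (292 ± 3.73 TPM), Ywhaz (98.2 ± 1.29 TPM) and Ywhab (52.2 ± 1.67 TPM), whose proteins bind phosphorylated YAP among many partners, and the casein kinase gene Csnk1d (33.5 ± 0.813 TPM) completed the highest of this list. Of its 18 genes, which include the members Vgll2, Vgll3 and Vgll4, 17 were detected, with Vgll1 at 0.

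Downstream, 20 of 22 genes of a widely used YAP and TAZ target signature were detected, with a median of 12.6 TPM. The highest were Axl (66.0 ± 0.587 TPM), Ccdc80 (62.0 ± 1.07 TPM), Igfbp3 (57.4 ± 0.0919 TPM), Rbms3 (27.0 ± 1.90 TPM), Amotl2 (25.8 ± 3.05 TPM) and the member Lats2 (16.5 ± 1.91 TPM). Foxf2 was at 0.08 TPM in both libraries and Dock5 at 0.93 and 0.75 TPM. Of the 19 signature genes averaging 100 counts or more, 6 were higher in replicate 2, where 55.3% of all such genes were, and 0 were over 1.5-fold apart, where 2.46% were, with a median log2 ratio of -0.02 beside 0.02 for all genes. Many of these genes are also expressed in fibroblasts and vessels, so their levels are not a readout of YAP in muscle fibres.

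The 4 muscle genes with a textbook MCAT element were all detected. The skeletal actin gene Acta1 stood at 11663 and 13964 TPM, the slow myosin gene Myh7 at 221 and 190.0 TPM, the smooth muscle actin gene Acta2 at 141 and 145 TPM and the troponin T gene Tnnt2 at 69.1 and 67.2 TPM. None was over 1.5-fold apart between libraries, where 2.46% of all genes were.

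**Figure D5:**
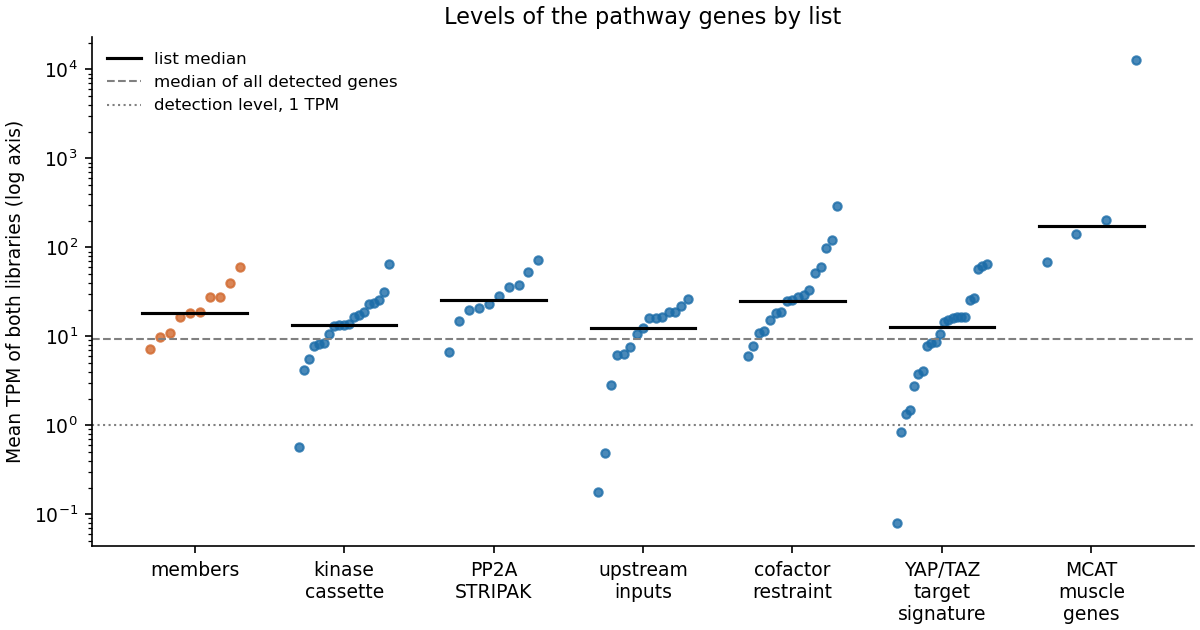
Mean TPM of both libraries (y axis, log scale) for each gene (points) of the members and of the pathway lists, with list medians (bars), the median of all detected genes at 9.40 TPM (dashed) and the detection level of 1 TPM (dotted); Vgll1, at 0, is not drawn. The median of the members, 18.5 TPM, lies between those of the kinase list (13.5 TPM) and of the restraint list (25.2 TPM). These lists share genes with the members: Lats2 is in the kinase list, and Vgll2, Vgll3 and Vgll4 are in the restraint list.

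The core of the MCAT element, CATTCC, was searched on both strands in RefSeq promoter windows of 300 bases, from 250 before to 50 after each start (GRCm38.p6). At least 1 window held it for 6 of the 8 members with a window (Yap1, Wwtr1, Tead3, Vgll3, Vgll4 and Lats2). Of all genes with a window 16.6% held it, and of detected protein-coding genes with a window 14.4%. Counted by window, 8 of 12 of the members' windows held it, beside 14.7% of all windows. Windows of 1 gene can overlap, so they are not separate cases. The Wwtr1 matches at 136 and 170 bases before a start are the same site. The same letters were found for 7 of 15 signature genes, Lats2 included, and for all 4 MCAT muscle genes, which are known for the element. A match is only a string of letters and does not show binding.

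Overlapping annotation touched few reads of the other members. The antisense or opposite-strand genes at Yap1, Wwtr1 and Tead4 had 0 expected counts. Tead1 shares 764 bases with 2310014F06Rik on the opposite strand (46 and 56 expected counts in replicates 1 and 2), and Tead2 shares 13 bases with Cd37 on the opposite strand (81 and 60). Tead3, Vgll2, Vgll3 and Vgll4 overlapped no annotated gene. The sources used here do not give the strand setting of the counts, so reads of these opposite-strand partners cannot be told apart with certainty.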

How the data were processed

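Total RNA-seq of 2 gastrocnemius libraries was used. For each, the authors deposited gene and transcript tables holding TPM and expected counts, which can be fractional, and a separate transcript table with estimated counts and TPM, summed per gene here and called the other quantification. The build was mm10 with GENCODE M21 genes, per the labels and the file headers. The sources used here do not give the programs or strand settings. Reads of both parental strains were counted on the mm10 reference, and alleles were not separated.

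After rounding of the expected counts, TMM scaling and log2 ratios (prior count 2) came from edgeR 4.0.16 in R 4.3.3, over genes averaging 10 counts or more. This step was tested on simulated counts. With 1 library against 1, no p-value was computed. Intervals were exact (scipy 1.17.1) and cover counting error only, since reads are not independent molecules. Alternatives included DESeq2 1.42.0 size factors. The members and lists were chosen with earlier results of these data known. Named were all members and family genes, the 6 highest genes of each pathway list and those under 1 TPM in both libraries, and leading transcripts. The listed symbol Frmd1 matched no gene symbol. The 2 STRIPAK symbols Striip1 and Striip2, as written in the list, matched none either, so they were not analysed here.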

Additional observations from a re-analysis of the deposited data

How the results depend on the processing

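In place of the reported family shares, the other quantification gave 58.7% for Tead1, 45.6% for Vgll2 and 61.9% for Yap1. Expected counts gave 83.3% for Tead1, 35.0% for Vgll2, 54.6% for Yap1 and 47.9% for Lats2. Protein-coding transcripts only, added after the data were seen, gave 68.0% for Tead1, 61.6% for Vgll2 and 56.7% for Lats2. With 2 libraries, leaving one out cannot move a mean beyond the SD, so it says nothing about the stability of shares or levels. The mean log2 ratio of Tead1 over Tead2 was 1.68, and 1.44 in the other quantification, 2.08 with protein-coding transcripts only and 3.66 by expected counts.

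The order of Tead3 over Tead4 turned in the other quantification (log2 -0.29) and with protein-coding transcripts only (log2 -0.47), and that of Vgll4 over Vgll3 with expected counts (log2 -0.33) and with protein-coding transcripts only (log2 -0.39). With expected counts Lats2 fell below Lats1 (log2 -0.12) and Mob1a below Mob1b (log2 -0.39). These expected-count orders were added after the data were seen. Spike-in scaling left 4 members higher in replicate 2, where 22.9% of the genes averaging 100 counts or more were. Tead1 then lay at -0.062 and Yap1 at -0.029 (log2). The 2-fold threshold left 88 of all genes, in place of 301, and 0 members. Levels in the other quantification moved beyond the SD for all 10 members, and without spike-ins and mitochondrial genes for 8. Detected counts of the pathway lists stayed within 1.5 times under every setting run. The cause of the other changes was not tested. No paired analysis was possible because the series holds 1 group. With 2 libraries, the SD itself is imprecise.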
